A study of Mus musculus with 16 samples.

Results

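The 10 genes described here are widely used to mark or define stem cells of the mouse hair follicle: Lgr5, Lgr6, Cd34, Krt15, Lrig1, Sox9, Lhx2, Nfatc1, Tbx1 and Gli1. They were taken by symbol from a table of normalised read counts for 32078 genes, all 10 were found, and all 10 passed the filter on low values that kept 19189 genes. RNA came from whole skin of 7-week-old mice in 16 libraries, which the titles place in 8 groups of 2. The design text of the series describes a different experiment, on follicle stem cells sorted after fatty acid treatment. The sample labels name whole skin and SDS, and they were followed. The titles name SDS (sodium dodecyl sulfate, a detergent that irritates skin) with Topsym at days 0, 1, 3 and 5 in one arm. In the other arm they name SDS without Topsym, here called SDS alone, at days 0, 1, 3 and 5. Topsym is known as a fluocinonide product, a potent topical glucocorticoid, which is background and not stated in the labels. The strain and sex of the mice are not given in the sources used here. The labels name 4 days of topical treatment although the titles reach day 5, and neither the hour of each application nor what the day 0 skin with Topsym had received is stated. The titles name no group without SDS on any day, and the day 0 libraries carry SDS in their titles and the same 4 days of treatment. A change from day 0 thus joins SDS with elapsed time and with the piece of skin taken, which cannot be told apart. No label ties the libraries of one group to separate animals, so every p-value measures only the spread between libraries, which may be technical.

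The hair follicle keeps its stem cells in several niches. Quiescent cells of the bulge carry CD34 and keratin 15 and depend on the transcription factors SOX9, LHX2, NFATC1 and TBX1, whereas LGR5 marks the lower bulge and hair germ, which divide first when a new hair cycle begins. LRIG1 marks the junctional zone next to the sebaceous gland, LGR6 the isthmus and cells of the interfollicular epidermis, and GLI1, a target of hedgehog signalling, marks cells at the upper bulge and hair germ. In mice of about this age the follicles of the back are known to rest in telogen, when inner root sheath and hair shaft keratins are low.

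In the GRCm38 assembly with GENCODE M21, Lgr5 lies on chromosome 10 at 115450311 to 115587780 on the minus strand, and Gli1 on the same chromosome at 127329882 to 127341974 on the minus strand. Lgr6 lies on chromosome 1 at 134983301 to 135105276 on the minus strand, and Cd34 on the same chromosome at 194938819 to 194961279 on the plus strand. Krt15 spans 100131758 to 100135928 on the minus strand of chromosome 11, and Sox9 spans 112782224 to 112787760 on the plus strand of chromosome 11. Lhx2 lies on chromosome 2 at 38339281 to 38369733 on the plus strand, Lrig1 on chromosome 6 at 94604529 to 94700158 on the minus strand and Tbx1 on chromosome 16 at 18580979 to 18590671 on the minus strand. Exons of Lrig1, Cd34 and Gli1 overlap those of Slc25a26, Gm16897 and Arhgap9 on the opposite strand, and with the strand setting of the counting unstated in the sources, reads of these pairs may be mixed.

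Promoter sequences from RefSeq (assembly GRCm38.p6, 250 bases before to 50 after the start) were matched for 5 of the 10 genes, namely Lgr6, Lrig1, Cd34, Lhx2 and Tbx1. Nfatc1 was not looked up. Lhx2 and Tbx1 are shown because their levels followed each other most closely of all pairs of the 10 genes. Cd34 is shown because, of the 5, it was lower with Topsym by the most at both days 3 and 5. Lrig1 was also lower at both days. Each sequence is written 5′ to 3′ on the strand of the gene, and capitals mark GGGCGG, the letters of a GC box, on either strand.
Lhx2 promoter (chr2:38339031-38339330, plus strand): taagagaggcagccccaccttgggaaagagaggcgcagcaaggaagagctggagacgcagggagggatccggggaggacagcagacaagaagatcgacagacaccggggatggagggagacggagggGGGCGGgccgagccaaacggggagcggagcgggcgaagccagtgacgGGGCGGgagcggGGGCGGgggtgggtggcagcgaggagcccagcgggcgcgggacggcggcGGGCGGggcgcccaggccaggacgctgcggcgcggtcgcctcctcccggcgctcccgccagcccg
Tbx1 promoter (chr16:18590622-18590921, minus strand): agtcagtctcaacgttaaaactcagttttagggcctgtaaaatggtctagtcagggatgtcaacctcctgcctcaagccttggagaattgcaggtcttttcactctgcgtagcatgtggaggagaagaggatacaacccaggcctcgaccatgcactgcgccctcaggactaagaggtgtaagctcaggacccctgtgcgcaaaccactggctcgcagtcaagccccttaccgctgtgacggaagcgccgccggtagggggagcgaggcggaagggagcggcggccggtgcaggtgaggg
Cd34 promoter (chr1:194938571-194938870, plus strand): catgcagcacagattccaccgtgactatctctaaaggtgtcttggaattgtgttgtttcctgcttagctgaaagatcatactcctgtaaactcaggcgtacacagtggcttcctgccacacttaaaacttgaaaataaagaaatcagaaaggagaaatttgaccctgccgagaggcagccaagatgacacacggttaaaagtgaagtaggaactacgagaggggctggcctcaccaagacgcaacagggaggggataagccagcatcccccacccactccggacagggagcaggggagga
The Lhx2 sequence held GGGCGG 4 times, and neither the Tbx1 nor the Cd34 sequence held it. Lgr6 and Lrig1 held it 2 times each. Of 32851 promoters of this length in the table, 35.7% held these letters. The letters TATAAA, found in 13.6% of the promoters, and AGAACA (letters of a glucocorticoid receptor half-site), found in 19.0%, were in none of the 5 sequences on either strand. G and C made up 74.7% of the Lhx2 sequence and 58.3% of the Tbx1 sequence, against a median of 52.7% over all promoters. Lhx2 and Tbx1 thus differed in both respects.

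Libraries held 15199656 to 32066246 reads. At day 5 the 4 libraries held reads of 19885 to 20774 genes and gave 10.31 to 14.82% of reads to their 10 highest genes, against at least 22875 genes and at most 7.06% in the other 12. Basal keratins were high in every group (mean of at least 73325 normalised reads for Krt5 and 83868 for Krt14). Markers of cells outside the epithelium were also present, as 8 fibroblast genes summed to at least 301107 normalised reads in each day 0 library and 9 endothelial genes to at least 2969, which bears on the whole skin label. The SDS and Topsym day 0 libraries stood apart. All 14 measured inner root sheath and hair shaft genes, which mark growing hair, were higher there than at day 0 of SDS alone, and their summed level was 18468 to 18516 normalised reads, against 171 to 858 in all other libraries. Krt71, an inner root sheath keratin, stood at 5384 and 5910 normalised reads, against 1.76 and 3.21 at day 0 of SDS alone. Changes within the Topsym arm are therefore given against its own day 0 and, where that alters a call or a sign, also against day 0 of SDS alone, a baseline added after these values were seen.

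Values below are normalised reads of single libraries, and a change is a difference of log2(normalised reads + 1) with its standard error (SE) and an adjusted p from limma over all genes kept. A gene is said to have risen or fallen where the adjusted p was under 0.05. All 10 genes had fallen by day 5 in both arms, where 37.5% of all genes fell with SDS and Topsym and 35.8% with SDS alone. The median of the 10 changes was -2.92 with SDS and Topsym and -2.52 with SDS alone, against medians over all genes of -0.08 and -0.09. At day 3, 8 of the 10 had fallen and 1 had risen with SDS and Topsym (28.2% of all genes fell and 27.0% rose), and all 10 had fallen with SDS alone (24.2% fell). At day 1, 4 had fallen with SDS and Topsym (20.5% of all genes) and 5 with SDS alone (13.5%). The count of 4 was 2 without day 0 replicate 1, day 1 replicate 1 or day 1 replicate 2 of that arm. It was 7 with day 0 of SDS alone as baseline, so which arm had more falls at day 1 depended on the baseline. In bulk skin, fewer cells of a type and less RNA per cell cannot be told apart. The summed level of 8 skeletal muscle genes also varied. With SDS and Topsym its means were 156193, 496922, 215498 and 147305 normalised reads at days 0, 1, 3 and 5. With SDS alone they were 452740, 335763, 449718 and 88271. The part of muscle in these changes was not tested.

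**Figure D1:**
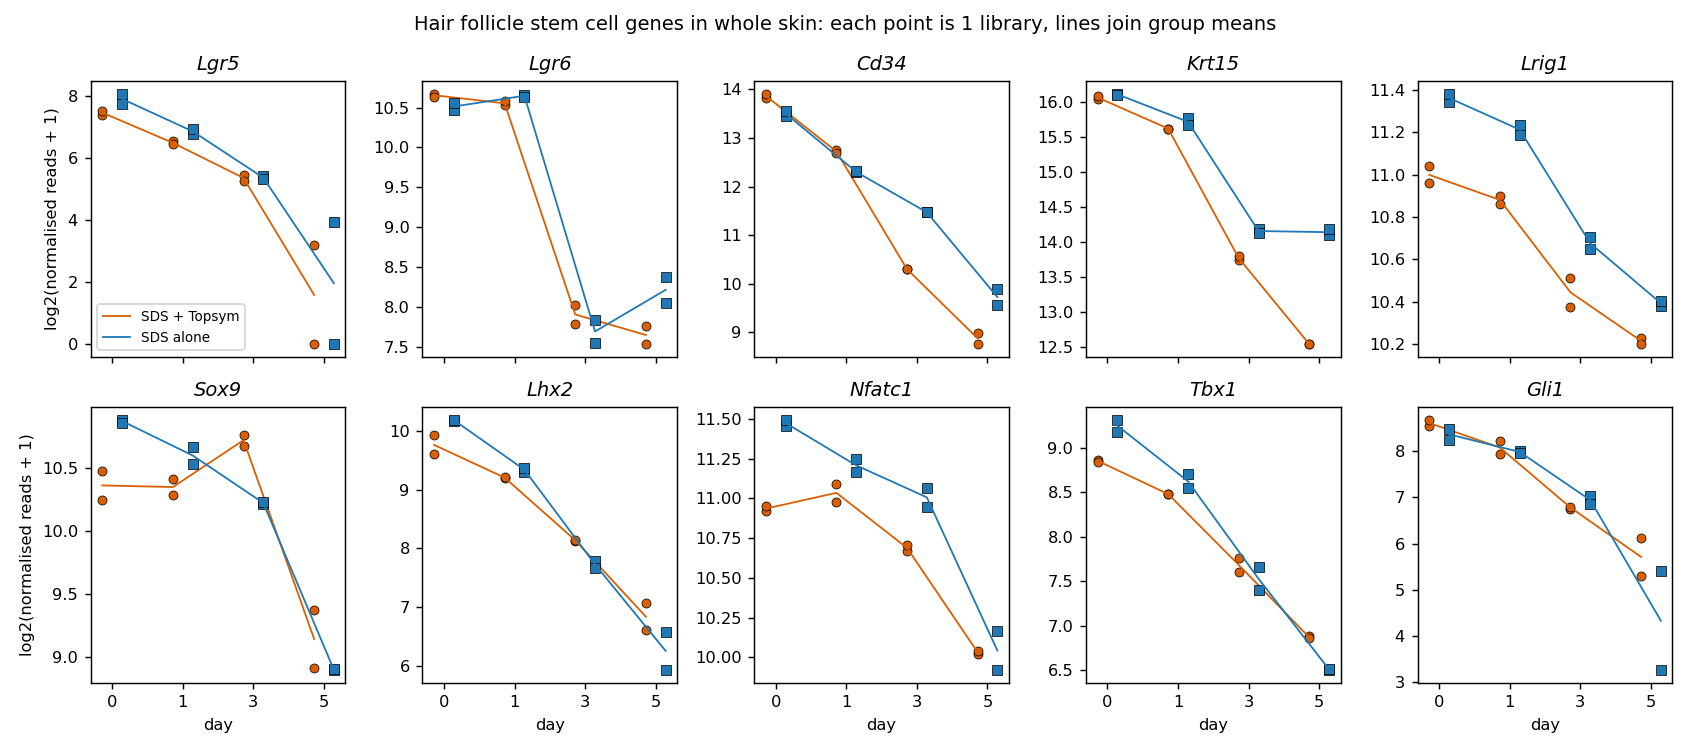
Level of each of the 10 genes as log2(normalised reads + 1) by day, with circles for SDS and Topsym, squares for SDS alone, 1 point per library and lines through the group means; vertical scales differ between panels. At day 5 every gene lies below its day 0 level in both arms, Sox9 with Topsym is at its highest at day 3, and 1 of the 2 day 5 libraries of each arm had 0 Lgr5 reads.

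Lgr5, a receptor that amplifies Wnt signals, had 168 and 183 normalised reads at day 0, 91.6 and 85.8 at day 1, 42.6 and 37.5 at day 3 and 8.07 and 0 at day 5 with SDS and Topsym. With SDS alone it had 269 and 212 at day 0, 108 and 123 at day 1, 41.6 and 38.9 at day 3 and 14.2 and 0 at day 5. In both arms each later day lay below the day before it with no overlap, and at days 3 and 5 the arms overlapped. Day 5 rested on 4 reads in 1 library and 0 in the other with Topsym, and on 10 and 0 with SDS alone. Exact 95% Poisson intervals of the summed reads were 1.09 to 10.24 with Topsym and 4.8 to 18.39 with SDS alone. They leave out all error but that of counting, and they are too narrow if both mates of a pair were counted. If reads are independent, a count of 0 allows up to 4.79 normalised reads in the Topsym library and 4.25 in the library of SDS alone. At day 5 the fitted change was -5.87 (SE 0.95, limma adjusted p = 3.86e-05) with SDS and Topsym and -5.94 (SE 0.95, adjusted p = 3.97e-05) with SDS alone. Both depend on the pseudocount and on 1 library each. With Topsym the change was -7.46 without day 5 replicate 1 and -4.28 without day 5 replicate 2, and with SDS alone it was -7.90 and -3.97 without the same replicates. At day 3 Lgr5 fell by 2.54 with SDS alone (limma adjusted p = 0.0365), a call that was lost without any 1 of the 4 libraries (adjusted p of 0.0906 to 0.141), with no filter and with a robust variance prior. The change of -2.10 at day 3 with SDS and Topsym missed the threshold (limma adjusted p = 0.073) but passed it in edgeR (adjusted p = 5.76e-06) and DESeq2 (adjusted p = 2.97e-13), and was -2.55 against day 0 of SDS alone (adjusted p = 0.0346). The day 1 changes of -0.97 with SDS and Topsym and -1.05 with SDS alone likewise missed it in limma and passed it in both count tests. With only the groups compared fitted, limma's adjusted p was 8.73e-05 for the day 3 change with SDS and Topsym. For the day 1 changes it was 0.00514 with SDS and Topsym and 0.0235 with SDS alone. The SE of 0.95 is 1 estimate shared by the 8 groups, and it includes the wide log2 spread of the day 5 pairs. Pairs of libraries at days 0, 1 and 3 lay closer together.

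Lgr6, the related receptor of the isthmus and epidermis, kept its level to day 1 and was far lower from day 3. It had 1637 and 1591 normalised reads at day 0, 1476 and 1530.2 at day 1, 220.2 and 258 at day 3 and 216 and 184 at day 5 with SDS and Topsym. In skin given SDS alone it had 1416 and 1509.8 at day 0, 1621 and 1591 at day 1, 227 and 186 at day 3 and 265 and 330.2 at day 5. The lowest library of days 0 and 1 had 1416 and the highest of days 3 and 5 had 330.2, so no earlier library overlapped a later one. Between days 1 and 3 Lgr6 fell by 2.65 with SDS and Topsym (SE 0.12, limma adjusted p = 2.91e-11) and fell by 2.96 with SDS alone (SE 0.12, adjusted p = 7.77e-12). From day 3 to day 5 it rose by 0.52 with SDS alone (SE 0.12, limma adjusted p = 0.00135), though not when those 2 groups were fitted without the others (adjusted p = 0.0733), and changed by -0.26 with SDS and Topsym (adjusted p = 0.0768).

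Cd34 encodes a cell-surface sialomucin used to sort bulge cells, and it is also made by endothelium, dermal fibroblasts and mast cells. It had 14493 and 15445 normalised reads at day 0, 6883 and 6635 at day 1, 1262 and 1253 at day 3 and 429.6 and 508 at day 5 with SDS and Topsym. Under SDS alone the values were 11256 and 11995 at day 0, 5013 and 5078 at day 1, 2831 and 2838 at day 3 and 950.4 and 748 at day 5. All 8 groups were apart from one another, and at days 0 and 1 the libraries with Topsym were the higher ones, at days 3 and 5 the lower ones. By day 5 the change in Cd34 was -4.998 with SDS and Topsym (SE 0.09, limma adjusted p = 3.24e-17) and -3.78 with SDS alone (SE 0.09, adjusted p = 1.42e-15), which left 3.13% and 7.31% of the day 0 mean of each arm. The summed level of 8 fibroblast markers lay between 419432 and 426764 at day 0 and between 6922 and 7008 at day 5 with SDS and Topsym, and between 301107 and 309514 at day 0 and between 15383 and 15687 at day 5 with SDS alone. The summed level of 9 endothelial markers lay between 2969 and 3013 at day 0, 4376 and 4503 at day 3 and 823 and 885 at day 5 with SDS and Topsym. With SDS alone it lay between 3848 and 3980 at day 0, 11016 and 11306 at day 3 and 1243 and 1394 at day 5. It was thus above day 0 at day 3 and below it at day 5 in both arms. The summed level of 6 mast cell markers had the same order, at means of 2522, 3720 and 1195 with SDS and Topsym and 3272, 5380 and 1189 with SDS alone at days 0, 3 and 5. The part of these cell types in the Cd34 values was not tested.

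**Figure D2:**
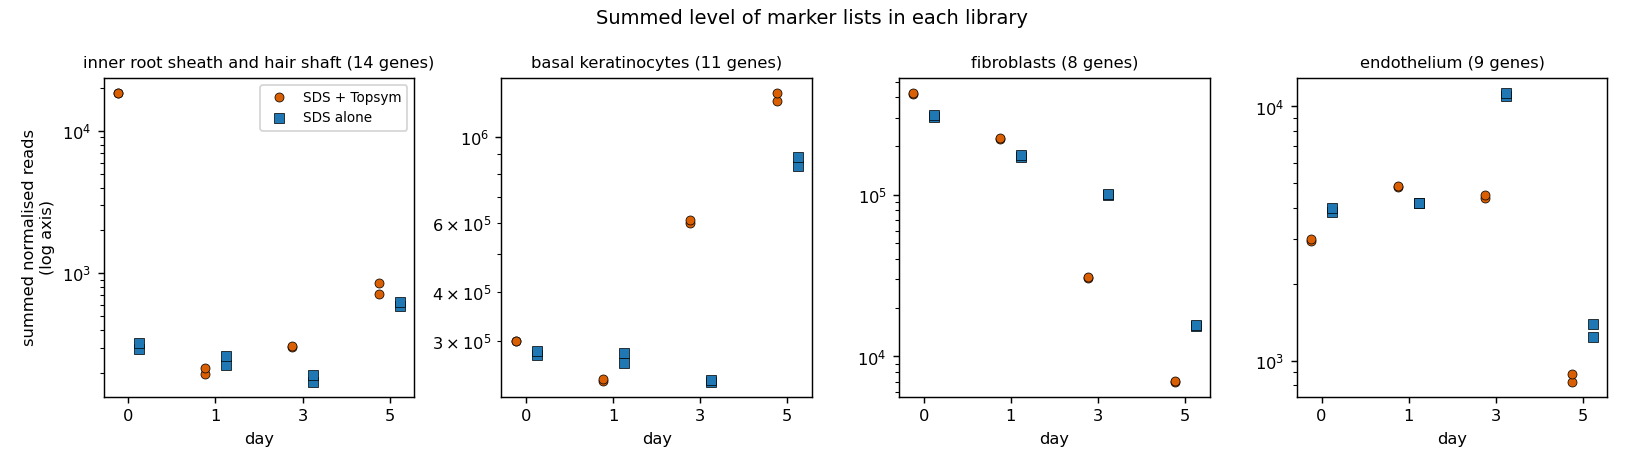
Summed normalised reads (log axis) of 4 marker lists by day, with circles for SDS and Topsym, squares for SDS alone and 1 point per library. The inner root sheath and hair shaft sum is high in the 2 SDS and Topsym day 0 libraries, the fibroblast sum is lower at each later day, and the basal keratinocyte sum, which is mostly Krt14 and Krt5, is highest at day 5 with Topsym although 7 of the 11 genes were lower there than with SDS alone.

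Krt15, a type I keratin of bulge cells and of resting basal cells, was the most abundant of the 10 genes. It had 67548 and 70105 normalised reads at day 0, 50536 and 50554 at day 1, 13739.5 and 14299 at day 3 and 5978 and 5978 at day 5 with SDS and Topsym. SDS alone gave 71501 and 70463 at day 0, 55962 and 52303 at day 1, 18748 and 17931 at day 3 and 17562 and 18708 at day 5. From day 3 to day 5 it fell by 1.23 with SDS and Topsym (SE 0.04, limma adjusted p = 6.63e-13), whereas with SDS alone the groups overlapped and the change of -0.02 missed the threshold (SE 0.04, adjusted p = 0.768). Per kilobase of exon, Krt15 stood at 62.6 and 64.1% of the Krt14 level at day 0, 60.0 and 59.9% at day 1, 4.05 and 4.32% at day 3 and 0.693 and 0.735% at day 5 with SDS and Topsym. With SDS alone it stood at 74.3 and 70.8% of Krt14 at day 0, 57.5 and 58.4% at day 1, 15.7 and 15.1% at day 3 and 3.10 and 3.14% at day 5. The summed level of 11 basal keratinocyte genes at day 5 was 1232360 to 1292770 normalised reads with SDS and Topsym and 838772 to 886114 with SDS alone, against 299715 to 300234 and 276558 to 283193 at day 0. Most of this sum was Krt14 and Krt5. Krt14 had a mean of 833855 at day 5 with SDS and Topsym and 578803 with SDS alone, and Krt5 had 378074 and 218176. The list as a whole did not follow the sum. With Topsym against SDS alone at day 5, 3 of the 11 were higher and 7 lower (median -0.30). Between days 3 and 5 with SDS and Topsym 2 rose and 9 fell (median -0.30). The part of the basal keratin level in the Krt15 values was not tested.

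Lrig1, a transmembrane protein that dampens ErbB receptors, changed least by day 5 in both arms. It had 1989 and 2103 normalised reads at day 0, 1907 and 1861 at day 1, 1329 and 1458 at day 3 and 1200.0 and 1174 at day 5 with SDS and Topsym. Without Topsym it had 2593 and 2669 at day 0, 2411 and 2334 at day 1, 1602 and 1667 at day 3 and 1332 and 1355 at day 5. At each day both libraries with Topsym lay below both with SDS alone. Lrig1 fell by 0.78 at day 5 with SDS and Topsym (SE 0.06, limma adjusted p = 3.04e-09) and fell by 0.97 with SDS alone (SE 0.06, adjusted p = 2.72e-10), while at day 1 its changes of -0.12 and -0.15 did not pass the test (adjusted p = 0.119 and 0.071). Against day 0 of SDS alone the day 1 change with SDS and Topsym was -0.48 (adjusted p = 6.98e-06).

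Of the transcription factors, Sox9, which is needed to form and keep the bulge, was the exception at day 3. It had 1420.4 and 1214 normalised reads at day 0, 1248 and 1357 at day 1, 1635 and 1737 at day 3 and 480.0 and 661 at day 5 with SDS and Topsym. With SDS alone it had 1888 and 1858 at day 0, 1621 and 1479.9 at day 1, 1187 and 1197 at day 3 and 474 and 476 at day 5. With Topsym the day 3 libraries lay above all 6 others of the arm, whereas with SDS alone each later day lay below the day before it. Against its own day 0, Sox9 rose by 0.36 at day 3 with SDS and Topsym (SE 0.11, limma adjusted p = 0.0125), but against day 0 of SDS alone the change was -0.15 (adjusted p = 0.282). The rise was also lost without day 0 replicate 2 (0.25, adjusted p = 0.171) or day 3 replicate 2 (0.32, adjusted p = 0.0879) of that arm. At day 1 its change with SDS and Topsym was -0.01 against its own day 0 (adjusted p = 0.946) and -0.52 against day 0 of SDS alone (adjusted p = 0.00183). With SDS alone Sox9 fell by 0.65 at day 3 (SE 0.11, adjusted p = 0.000139), and by day 5 it fell by 1.22 with SDS and Topsym (SE 0.11, adjusted p = 5.33e-08) and fell by 1.98 with SDS alone (SE 0.11, adjusted p = 1.47e-10).

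Lhx2, a LIM homeobox factor that holds bulge cells in rest, had 969 and 775 normalised reads at day 0, 584 and 593 at day 1, 279 and 282 at day 3 and 96.8 and 133 at day 5 with SDS and Topsym. In skin given SDS alone it had 1156 and 1168 at day 0, 629 and 663 at day 1, 221 and 201 at day 3 and 59.8 and 94.9 at day 5. It was lower at each later day in both arms with no overlap. Lhx2 fell by 2.92 at day 5 with SDS and Topsym (SE 0.18, limma adjusted p = 3.48e-10) and fell by 3.93 with SDS alone (SE 0.18, adjusted p = 1.06e-11), to 13.2% and 6.66% of the day 0 means. The fall at day 1 with SDS and Topsym of 0.56 (adjusted p = 0.0222) was lost without day 0 replicate 1 (-0.40, adjusted p = 0.226), day 1 replicate 1 (-0.55, adjusted p = 0.0941) or day 1 replicate 2 (-0.57, adjusted p = 0.0827) of that arm.

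Tbx1, a T-box factor that supports renewal of bulge cells, had 464 and 458 normalised reads at day 0, 356 and 356 at day 1, 193 and 217 at day 3 and 117 and 115 at day 5 with SDS and Topsym. Under SDS alone the values were 579 and 635 at day 0, 415 and 373 at day 1, 201 and 168 at day 3 and 89.6 and 90.7 at day 5. Its course was that of Lhx2 on a smaller scale. Tbx1 fell by 1.98 at day 5 with SDS and Topsym (SE 0.13, limma adjusted p = 7.28e-10) and fell by 2.74 with SDS alone (SE 0.13, adjusted p = 1.53e-11). Its fall of 0.37 at day 1 with SDS and Topsym (adjusted p = 0.0319) was lost without any 1 of the 4 libraries (adjusted p of 0.0839 to 0.117).

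Nfatc1, a calcineurin-dependent factor that keeps bulge cells quiescent, had 1938 and 1977 normalised reads at day 0, 2017 and 2179 at day 1, 1628 and 1671 at day 3 and 1039 and 1054 at day 5 with SDS and Topsym. SDS alone gave 2801 and 2885 at day 0, 2429.9 and 2299 at day 1, 1973 and 2143 at day 3 and 967 and 1149 at day 5. The arms overlapped at day 5 alone. The gene lies on chromosome 18 at 80606205 to 80713071 on the minus strand of GRCm38. Nfatc1 fell by 0.90 at day 5 with SDS and Topsym (SE 0.07, limma adjusted p = 1.04e-08) and fell by 1.43 with SDS alone (SE 0.07, adjusted p = 3.77e-11). Its day 3 fall of 0.25 with SDS and Topsym (adjusted p = 0.00913) was lost without day 0 replicate 2 (-0.23, adjusted p = 0.0585) or day 3 replicate 1 (-0.23, adjusted p = 0.0605). The day 1 fall of 0.27 with SDS alone (adjusted p = 0.0127) was lost without day 0 replicate 2 (-0.24, adjusted p = 0.0822) or day 1 replicate 2 (-0.23, adjusted p = 0.107). At day 1 with Topsym its change was 0.10 against its own day 0 (adjusted p = 0.317) and -0.44 against day 0 of SDS alone (adjusted p = 0.000206).

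Gli1, the transcription factor induced by hedgehog signals, had 372 and 412 normalised reads at day 0, 297 and 246 at day 1, 107 and 111 at day 3 and 68.6 and 38.3 at day 5 with SDS and Topsym. Without Topsym it had 304 and 358 at day 0, 258 and 248 at day 1, 129.9 and 115 at day 3 and 41.3 and 8.50 at day 5. The day 5 values stood on 34 and 24 reads with Topsym and on 29 and 6 reads with SDS alone. Gli1 fell by 2.91 at day 5 with SDS and Topsym (SE 0.45, limma adjusted p = 2.24e-05) and fell by 4.05 with SDS alone (SE 0.45, adjusted p = 6.20e-07), the second ranging from -5.12 without day 5 replicate 1 to -2.97 without day 5 replicate 2. Its day 3 fall of 1.43 with SDS alone (adjusted p = 0.0144) was lost without day 0 replicate 2 (-1.31, adjusted p = 0.0817) or day 3 replicate 2 (-1.34, adjusted p = 0.0800).

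**Figure D3:**
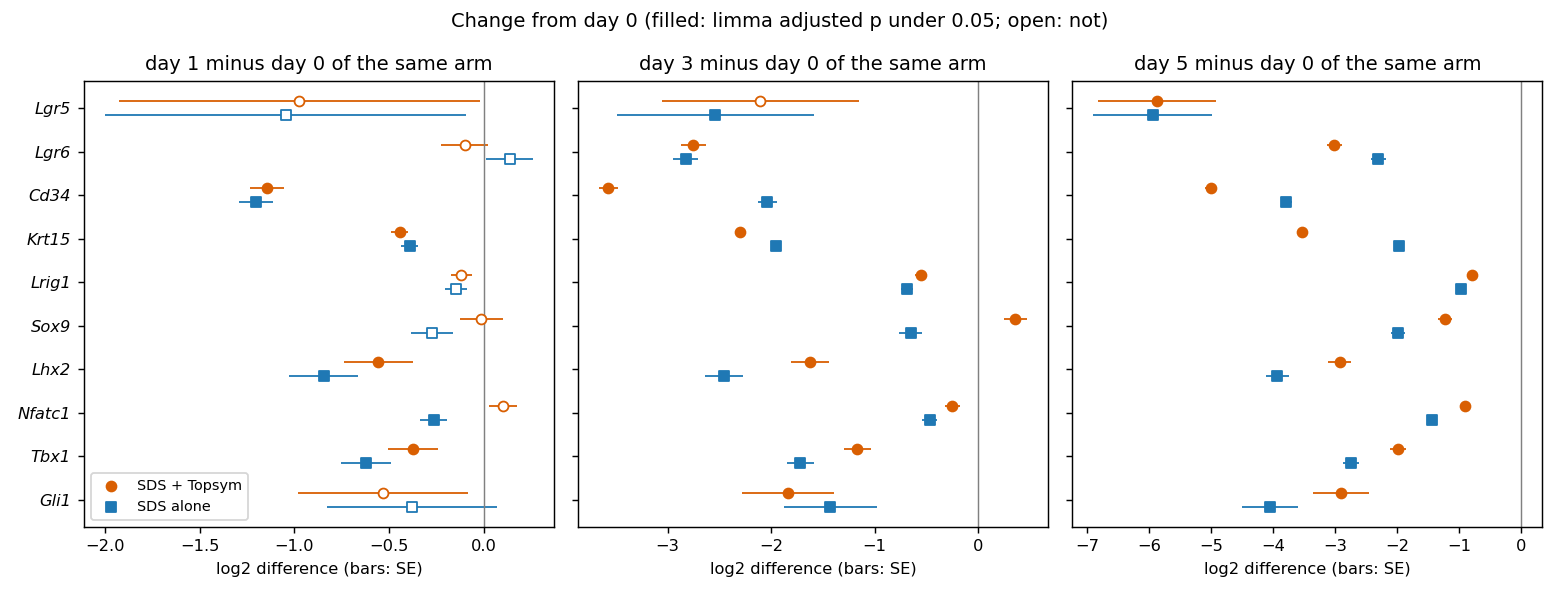
Log2 difference from day 0 of the same arm at days 1, 3 and 5, with circles for SDS and Topsym, squares for SDS alone, bars for the SE and filled symbols where limma's adjusted p was under 0.05; horizontal scales differ between panels. At day 5 every symbol is filled and left of 0, and at day 3 the Sox9 circle is the one filled symbol right of 0.

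The genes differed in when they fell. Between days 1 and 3, 8 of the 10 fell with SDS and Topsym (22.9% of all genes) and 8 with SDS alone (18.6%). Sox9 rose by 0.37 with SDS and Topsym (22.1% rose, adjusted p = 0.0125), a rise lost without day 1 replicate 1 (0.31, adjusted p = 0.104) or day 3 replicate 2 (0.33, adjusted p = 0.0921). Between days 3 and 5, 9 fell with SDS and Topsym (35.1%) and 8 with SDS alone (34.5%), where Lgr6 rose (28.9%). The Lgr5 fall between days 3 and 5 rested on the day 5 replicate 2 libraries with 0 reads, as without them it was -2.18 with SDS and Topsym (adjusted p = 0.0549) and -1.44 with SDS alone (adjusted p = 0.135). The Gli1 fall of 1.07 in the same step with SDS and Topsym (adjusted p = 0.0482) was -0.66 without day 5 replicate 2 (adjusted p = 0.292) and was also lost without either day 3 library (adjusted p = 0.126 and 0.141). In that step Lrig1 with SDS and Topsym was lost without day 3 replicate 2 (-0.16, adjusted p = 0.0549). Between days 1 and 3, Gli1 with SDS and Topsym was lost without any 1 of the 4 libraries (adjusted p of 0.0632 to 0.132). With SDS alone in the same step Nfatc1 was lost without day 1 replicate 1, day 1 replicate 2 or day 3 replicate 1 (adjusted p of 0.0556 to 0.258), and Sox9 without day 1 replicate 1 or either day 3 library (adjusted p of 0.0551 to 0.106). Cd34 had the largest fall at day 1 among those that passed the test, as it fell by 1.15 with SDS and Topsym (SE 0.09, limma adjusted p = 2.55e-08) and fell by 1.20 with SDS alone (SE 0.09, adjusted p = 3.32e-08). Lgr6 lost most between days 1 and 3, and Sox9 and Nfatc1 between days 3 and 5.

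Topsym was then set against SDS alone on the same day. At day 5 Gli1, Lhx2 and Tbx1 were higher with Topsym and Krt15, Cd34, Lgr6 and Lrig1 lower. These were 3 of the 10 against 22.6% of all genes higher and 4 of the 10 against 24.2% lower. The counts alone thus do not set the 10 genes apart from all genes. Krt15 differed by -1.60 (SE 0.04, limma adjusted p = 3.43e-13), at a mean of 5978 normalised reads with Topsym and 18135 with SDS alone, and it alone of the 7 passed the test when the 4 day 5 libraries were fitted by themselves (adjusted p = 0.00937). Cd34 differed by -0.85 (SE 0.09, adjusted p = 1.05e-06, or 0.0549 in that smaller fit), Lgr6 by -0.57 (SE 0.12, adjusted p = 0.00114, or 0.124) and Lrig1 by -0.18 (SE 0.06, adjusted p = 0.0189, or 0.0616). Lrig1 was also lost without replicate 2 of SDS alone (-0.17, adjusted p = 0.0738) or replicate 2 with Topsym (-0.16, adjusted p = 0.0754).

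The 3 genes that were higher with Topsym at day 5 were less firmly so. Lhx2 averaged 115 ± 25.3 normalised reads with Topsym and 77.4 ± 24.9 with SDS alone (SD, n = 2 each), a difference of 0.58 (SE 0.18, limma adjusted p = 0.0155). It was 0.91 without replicate 2 of SDS alone, and was lost without replicate 1 of SDS alone (0.25, adjusted p = 0.250) or replicate 2 with Topsym (0.36, adjusted p = 0.163). Gli1 averaged 53.5 ± 21.4 with Topsym and 24.9 ± 23.2 with SDS alone (SD, n = 2 each), and the groups overlapped. Its difference of 1.38 (SE 0.45, limma adjusted p = 0.0184) was 2.46 without replicate 1 of SDS alone, 0.31 without replicate 2 of SDS alone (adjusted p = 0.387) and 0.97 without replicate 1 with Topsym (adjusted p = 0.150). Tbx1 averaged 116 ± 1.38 with Topsym and 90.2 ± 0.755 with SDS alone (SD, n = 2 each), a difference of 0.36 (SE 0.13, limma adjusted p = 0.0334). Neither edgeR (adjusted p = 0.127) nor DESeq2 (adjusted p = 0.178) called it, and it was lost without any 1 of the 4 libraries (adjusted p of 0.0612 to 0.0825). Sox9 differed by 0.25 (adjusted p = 0.0865), or by 0.48 without replicate 1 with Topsym (adjusted p = 0.000735). Nfatc1 differed by -0.01 (adjusted p = 0.932). Lgr5 differed by -0.37 (SE 0.95, adjusted p = 0.787), or by -2.34 without replicate 2 of SDS alone (adjusted p = 0.0269) and 1.59 without replicate 1 of SDS alone (adjusted p = 0.128), so its sign and its call turned on single libraries that held 0 to 10 reads of the gene.

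At day 3, 1 gene was higher and 4 were lower with Topsym (20.8% of all genes higher and 22.9% lower). Cd34 averaged 1257 ± 5.73 normalised reads with Topsym and 2835 ± 4.92 with SDS alone (SD, n = 2 each), a difference of -1.17 (SE 0.09, limma adjusted p = 1.43e-08). Krt15 differed by -0.39 (SE 0.04, adjusted p = 2.16e-06), Nfatc1 by -0.32 (SE 0.07, adjusted p = 0.002) and Lrig1 by -0.23 (SE 0.06, adjusted p = 0.00366), the last lost without replicate 1 with Topsym (-0.16, adjusted p = 0.0737). Sox9 averaged 1686 ± 72.5 with Topsym and 1192 ± 7.34 with SDS alone (SD, n = 2 each) and was higher by 0.50 (SE 0.11, limma adjusted p = 0.00167). Lhx2 differed by 0.41 (adjusted p = 0.0819) and passed the test in edgeR (adjusted p = 0.00911) and DESeq2 (adjusted p = 0.0117). Lgr5 stood at a mean of 40.1 ± 3.56 with Topsym and 40.3 ± 1.94 with SDS alone (SD, n = 2 each). The difference was -0.01 with an SE of 0.95, which is shared by all groups and includes the spread at day 5.

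At days 0 and 1 no difference between the arms that passed the test was larger in size than that of Nfatc1 at day 0. At day 1 Cd34 was higher with Topsym by 0.42 (SE 0.09, limma adjusted p = 0.00549) and Lrig1 lower, at a difference of -0.33 (SE 0.06, adjusted p = 0.00117), 1 gene each way where 5.51% of all genes were higher and 4.29% lower. The Cd34 call was lost without replicate 1 of SDS alone (0.41, adjusted p = 0.0520) or replicate 1 with Topsym (0.39, adjusted p = 0.0667). At day 0 Cd34 was higher with Topsym by 0.36 (SE 0.09, adjusted p = 0.0068), and Nfatc1, Sox9, Tbx1 and Lrig1 were lower, with differences of -0.54, -0.51, -0.39 and -0.36 (limma adjusted p = 4.19e-05, 0.0032, 0.0408 and 0.000193), against 10.8% of all genes higher and 11.2% lower. Of these, Cd34 was lost without replicate 1 of SDS alone (0.32, adjusted p = 0.0728) or replicate 2 with Topsym (0.32, adjusted p = 0.101), Sox9 without replicate 2 with Topsym (-0.40, adjusted p = 0.0819) and Tbx1 without any 1 of the 4 (adjusted p of 0.0841 to 0.232). The 14 inner root sheath and hair shaft genes were higher with Topsym in this same comparison with a median of 6.43. All 7 sebaceous gland genes were lower with a median of -2.11 and 5 of 8 fibroblast genes were higher and 1 lower. The summed level of 8 skeletal muscle genes at day 0 was 153739 to 158648 normalised reads with Topsym and 449113 to 456368 with SDS alone. The part of these tissues in the day 0 values of the 10 genes was not tested.

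**Figure D4:**
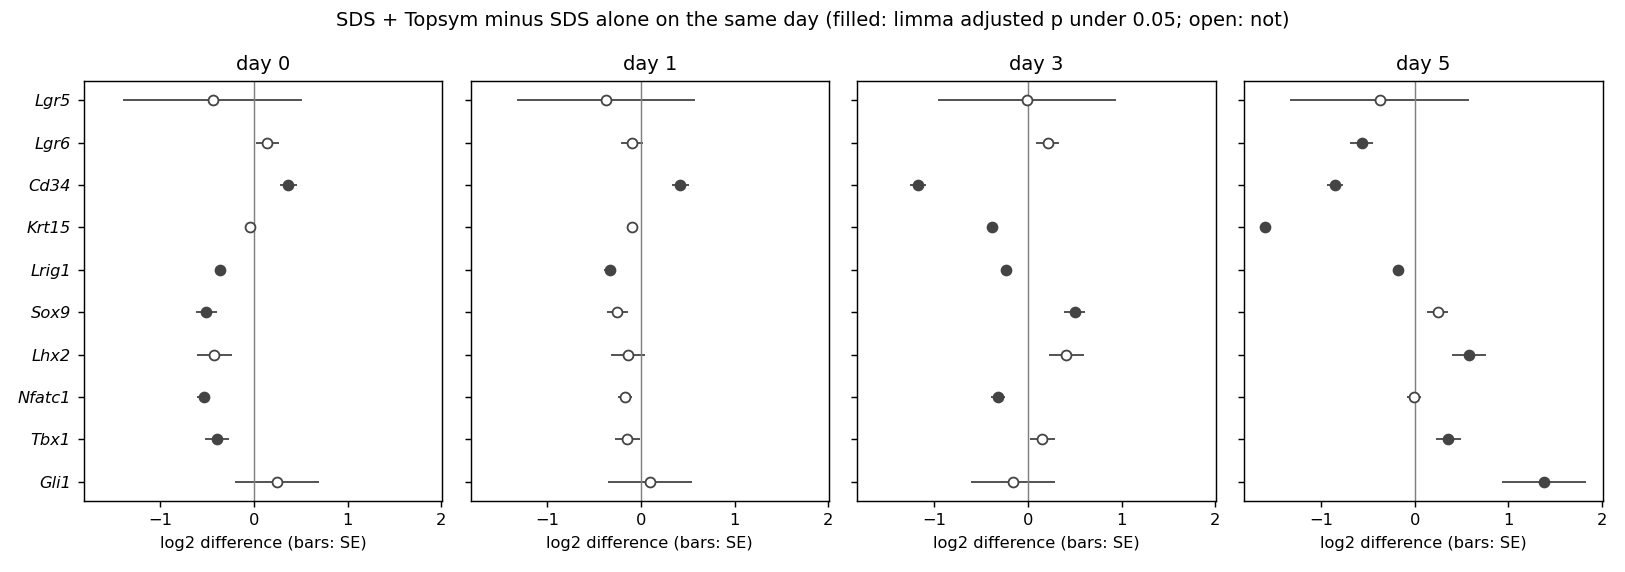
Log2 difference of SDS and Topsym minus SDS alone for each gene on days 0, 1, 3 and 5, with bars for the SE and filled circles where limma's adjusted p was under 0.05. Krt15 is at -0.04 on day 0 and -1.60 on day 5. Cd34 is right of 0 at days 0 and 1 and left of it at days 3 and 5. The Lgr5 bars reach across 0 on every day. For each gene the bars have the same length on all days, as the groups share 1 estimate of spread.

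Whether the change from day 0 differed with Topsym was tested as an interaction in the same limma fit. At day 5 it was positive for Sox9, Lhx2, Nfatc1 and Tbx1, 4 of the 10 genes against 17.3% of all genes, and negative for Lgr6, Cd34 and Krt15, 3 against 17.7%. At day 3 it was positive for Sox9, Lhx2 and Tbx1 (19.5% of all genes) and negative for Cd34 and Krt15 (19.5%). At day 1 it passed the test for Nfatc1 alone (9.18% positive), a call lost without any of 5 libraries (adjusted p of 0.0607 to 0.111). The day 3 count of 5 was 3 without day 0 replicate 2 with Topsym or day 3 replicate 2 of SDS alone. These ended the calls of Lhx2 (adjusted p = 0.107 and 0.0617) and Tbx1 (adjusted p = 0.0589 and 0.116). Tbx1 was also lost without replicate 2 of either of the other groups (adjusted p = 0.103 and 0.107). By day 5 Sox9, Nfatc1 and Tbx1 fell less with Topsym against their own day 0, and Cd34, Krt15 and Lgr6 fell more. The day 5 call of Lhx2 was lost without day 0 replicate 2 with Topsym (0.84, adjusted p = 0.0502) and with only the groups compared fitted (adjusted p = 0.0560). Sox9, Nfatc1 and Tbx1 started lower with Topsym at day 0, and their levels at day 5 differed between the arms by 0.25, -0.01 and 0.36.

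Ordered by mean level over the 8 groups, day 0 of SDS alone was highest for 7 genes, Lgr5, Krt15, Lrig1, Sox9, Lhx2, Nfatc1 and Tbx1, and day 0 of SDS and Topsym was highest for Lgr6, Cd34 and Gli1. Day 5 of SDS and Topsym was lowest for Lgr5, Lgr6, Lrig1, Cd34, Krt15 and Nfatc1, and day 5 of SDS alone was lowest for Sox9, Lhx2, Tbx1 and Gli1. Neighbours in this order overlapped for Lgr5 between the 2 day 3 groups and the 2 day 5 groups, for Krt15 between days 3 and 5 of SDS alone, and for Lrig1 between day 3 with Topsym and day 5 of SDS alone. For Sox9 they overlapped between days 0 and 1 with Topsym, for Tbx1 between the 2 day 3 groups, and for Gli1 between the 2 day 1 and the 2 day 5 groups. For Lgr6, day 0 with Topsym overlapped day 1 of SDS alone, day 1 with Topsym overlapped day 0 of SDS alone, and the lowest 3 groups ran into each other. For Nfatc1, day 3 of SDS alone overlapped day 1 and day 0 with Topsym, and the 2 day 5 groups overlapped. Neighbours in the order did not overlap for Cd34 and Lhx2.

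Per kilobase of exon, the scale on which genes can be set side by side, at day 5 Krt15 stood at 3383 normalised reads with SDS and Topsym and 10263 with SDS alone, and Lrig1 at 213 and 241. Lgr5 lay lowest, at 0.393 with SDS and Topsym and 0.693 with SDS alone. At day 0 Krt15 stood at 38951 with SDS and Topsym and 40171 with SDS alone, Cd34 at 2053 and 1595, and Lgr5 at 17.1 and 23.4.

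The 10 genes were compared in course over the 8 group means of log2(normalised reads + 1), as a description in which all genes come from the same 16 libraries and the 10 genes share the fall to day 5. The 45 pairs had Pearson's r of 0.551 to 0.999 with a median of 0.895, and Lhx2 and Tbx1 were the closest pair (r = 0.9987). Among 13730 genes searched, each of these 2 was also the closest gene to the other. The gene closest to Krt15 was Itgae, an integrin of epidermal T cells (r = 0.9984), and that closest to Lgr6 after the pseudogene Mrgprb9-ps was Krt77 (r = 0.9927), an epidermal keratin. Cd34 lay closest to Arsi (r = 0.9974), Armh4 (r = 0.996) and Col5a1 (r = 0.9956), a fibrillar collagen chain. Lgr5 lay closest to Zfp862-ps (r = 0.9993), Sox9 to Bche (r = 0.9856), Nfatc1 to Brsk1 (r = 0.9882), Gli1 to Fam171b (r = 0.9922) and Lrig1 to Hamp2 (r = 0.9947).

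Other genes reported for bulge stem cells, a list of 14 chosen with earlier results known, mostly moved the same way. At day 5, 13 fell and 1 rose with SDS and Topsym, and 12 fell and 1 rose with SDS alone, with medians of -2.22 and -1.44. Of all genes, 37.5% fell and 32.8% rose with SDS and Topsym, and 35.8% fell and 30.7% rose with SDS alone. Fgf18, a growth factor that holds follicles in telogen, fell by 4.42 at day 5 with SDS and Topsym (SE 0.26, limma adjusted p = 1.59e-10) and fell by 4.44 with SDS alone (SE 0.26, adjusted p = 2.09e-10). Hopx, a homeodomain protein of bulge cells that is also made by differentiating keratinocytes, went the other way and had already risen by 1.56 at day 1 with SDS alone (SE 0.08, limma adjusted p = 2.05e-10). With Topsym against SDS alone at day 5, 9 of the 14 were lower in limma's test (24.2% of all genes). Of 6 genes of the upper follicle, 5 rose and 1 fell at day 5 with SDS and Topsym, and 4 rose and 2 fell with SDS alone, where 32.8% and 30.7% of all genes rose. Plet1, a surface protein of the isthmus, rose at day 5 by 1.76 with SDS and Topsym (SE 0.07, adjusted p = 1.16e-12) and rose by 1.36 with SDS alone (SE 0.07, adjusted p = 4.89e-11). Gata6 of the same list went the other way. Its change was -0.78 with SDS and Topsym (SE 0.17, limma adjusted p = 0.000746) and -1.79 with SDS alone (SE 0.17, adjusted p = 1.05e-07).

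Lgr5 and Lgr6 were set beside a list of 15 genes of the R-spondin and Wnt pathway, of which 14 were tested. At day 5, 12 fell and 1 rose with SDS and Topsym (37.5% of all genes fell), and 12 fell and 1 rose with SDS alone (35.8% fell), with medians of -1.48 and -1.44. Rspo1, a ligand of these receptors, averaged 12 normalised reads at day 5 with SDS and Topsym and 17.7 with SDS alone. Rspo1 fell by 4.90 against its day 0 with SDS and Topsym (SE 0.31, limma adjusted p = 3.68e-10) and fell by 4.85 with SDS alone (SE 0.31, adjusted p = 5.81e-10). Lgr4, another receptor of the family, differed by -0.90 with Topsym against SDS alone at day 5 (SE 0.10, adjusted p = 1.09e-06). Of 13 tested genes of the hedgehog pathway of Gli1, 10 fell and 2 rose at day 5 with SDS and Topsym, and 9 fell and 2 rose with SDS alone, where 37.5% and 35.8% of all genes fell. With Topsym against SDS alone at day 5, 6 of the 13 were lower in limma's test (24.2% of all genes). Ptch1, a hedgehog receptor that the pathway itself induces, differed by -0.91 (SE 0.14, limma adjusted p = 5.04e-05), whereas the Gli1 difference, which was lost when 1 library was left out, was 1.38.

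BMP signals keep the bulge at rest. Of 14 genes of this pathway, 9 fell and 2 rose at day 5 with SDS and Topsym (37.5% of all genes fell). With SDS alone 10 fell and 2 rose (35.8% fell). The list includes the BMP antagonists Nog, Grem1 and Fst, which fell in both arms. Bmp4 fell by 3.25 with SDS and Topsym (SE 0.12, limma adjusted p = 2.51e-13) and fell by 2.74 with SDS alone (SE 0.12, adjusted p = 3.42e-12). Nog, an antagonist of BMP, fell by 1.93 with SDS and Topsym (SE 0.34, adjusted p = 0.000105) and fell by 3.14 with SDS alone (SE 0.34, adjusted p = 5.48e-07). Of 9 genes of calcineurin and NFAT, the pathway of Nfatc1, 7 fell at day 5 with SDS and Topsym, and 7 fell and 1 rose with SDS alone, against the same 37.5% and 35.8% of all genes. Nfatc4 fell by 2.98 with SDS and Topsym (SE 0.14, limma adjusted p = 5.56e-12) and changed by -3.499 with SDS alone (SE 0.14, adjusted p = 9.66e-13). Of 12 tested genes of the ErbB pathway, which Lrig1 dampens, 7 rose and 4 fell at day 5 with SDS and Topsym, and 6 rose and 2 fell with SDS alone, where 32.8% and 30.7% of all genes rose. Ereg, a ligand of the EGF receptor, rose at day 5 by 2.87 with SDS and Topsym (SE 0.09, adjusted p = 2.85e-14) and by 0.39 with SDS alone (SE 0.09, adjusted p = 0.000862). Areg, another ligand, rose by 1.61 with SDS and Topsym (SE 0.17, adjusted p = 3.10e-07) and by 3.49 with SDS alone (SE 0.17, adjusted p = 2.13e-11). Btc, also a ligand, fell by 1.27 with SDS and Topsym (SE 0.18, limma adjusted p = 7.35e-06) and by 2.53 with SDS alone (SE 0.18, adjusted p = 2.05e-09). Markers of dividing cells also rose at day 5, 12 of 12 in each arm (32.8% of all genes rose with SDS and Topsym and 30.7% with SDS alone), with medians of 1.99 with SDS and Topsym and 1.57 with SDS alone.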

How the data were processed

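Total RNA from mouse whole skin was prepared with a strand-specific Agilent SureSelect kit, per the labels' protocols. Reads were trimmed, aligned and counted with Trim Galore 0.6.7, HISAT2 2.2.1 and featureCounts 2.0.3 on mm10, and DESeq2 2.11.40.8 was used, per the submitters' processing notes. The strand and annotation settings are unstated in the sources. The deposited signal values are read counts divided by 1 size factor per library: all values were whole multiples of a step (tolerance 0.0001), which gave back 15199656 to 32066246 reads per library. Of the recovered counts from 1 to 20, 69.9 to 76.8% were even. This may mean that both mates of a pair were counted. Counts of mates are not independent molecules, so intervals and floors (3 reads) may be too narrow even for counting error.

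A gene was kept when 2 or more libraries reached a value of 10 (19189 genes). On log2(value + 1), limma 3.58.1 (R 4.3.3) with a variance trend fitted 8 group means to 16 libraries (8 residual degrees of freedom). Benjamini-Hochberg adjustment was over all genes kept, for 17 comparisons. The added 1 shrinks changes of low genes. A group mean of logs with a library at 0 lies below the log of the group mean, so a fall can also be overstated, as for Lgr5 at day 5. The fit was tested on simulated data for the change from day 0 to day 1 with SDS alone, and not for the other comparisons. Alternatives were pseudocount 4, 2 other filters, TMM (edgeR 4.0.16), a robust prior, a replicate block, the groups compared alone, each library left out, and edgeR and DESeq2 1.42.0 on recovered reads; another day 0 baseline was added after seeing the data. Where a group lost a library, the remaining one was assumed to vary like the other groups.

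The 10 genes and all lists were chosen with earlier results of these data known. All 10 are named, with up to 3 genes per other list with the largest change among those that passed the test, up to 3 of closest course with predicted models left out (highest group mean of at least 50), and a few defining markers. Positions are from GENCODE M21 (GRCm38).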

Additional observations from a re-analysis of the deposited data

Results flagged for a closer look

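These values are interactions, the log2 change since day 0 with SDS and Topsym minus that with SDS alone, and each passed a test of that difference itself in limma (adjusted p under 0.05 over all genes). Of the 10 genes, 4 had a positive and 3 a negative difference at day 5, where 17.3% and 17.7% of all genes did, 3 and 2 at day 3 (19.5% each way), and 1 and 0 at day 1 (9.18% positive). Both day 0 groups enter every value, and the SDS and Topsym day 0 libraries stood apart in hair shaft genes, whose part in these values was not tested.

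Krt15 differed by -0.343 at day 3 (adjusted p = 0.00035) and by -1.56 at day 5 (adjusted p = 1.57e-11), and its day 0 levels differed by -0.04. Cd34 differed by -1.54 at day 3 (adjusted p = 5.21e-08) and by -1.22 at day 5 (adjusted p = 1.31e-06). Lgr6 differed by -0.709 at day 5 (adjusted p = 0.00413). For these 3 genes the same-day difference at day 5 had the same sign.

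Sox9 differed by 1.01 at day 3 (adjusted p = 7.83e-05) and by 0.758 at day 5 (adjusted p = 0.00141), while its same-day difference was 0.50 at day 3 and 0.25 at day 5. Lhx2 differed by 0.835 at day 3 (adjusted p = 0.0168) and by 1.0 at day 5 (adjusted p = 0.00614). Without day 0 replicate 2 with Topsym, Lhx2 was 0.67 at day 3 (adjusted p = 0.107) and 0.84 at day 5 (adjusted p = 0.0502), and without day 3 replicate 2 of SDS alone it was 0.77 at day 3 (adjusted p = 0.0617). Nfatc1 differed by 0.365 at day 1 (adjusted p = 0.022), which was lost without any of 5 libraries (adjusted p of 0.0607 to 0.111), and by 0.527 at day 5 (adjusted p = 0.000829), where its same-day difference was -0.01. Tbx1 differed by 0.549 at day 3 (adjusted p = 0.0268), which was lost without replicate 2 of any of the 4 groups (adjusted p of 0.0589 to 0.116), and by 0.755 at day 5 (adjusted p = 0.00447).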

How the results depend on the processing

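For the 10 genes, 170 differences were computed and 115 passed the test, of which 31 lost it under at least 1 alternative, while 18 of the others gained it. No fall at day 5 against day 0 in either arm lost its call under any alternative run. Of 2360 alternative values, 2197 kept direction and side of the threshold, 92 lost the threshold, 44 gained it and 27 changed sign, and the cause was not tested. Depth limits Lgr5 and Gli1 at day 5. TMM moved the median of all genes by at most 0.0434.

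The number of the 10 genes called for Topsym against SDS alone at day 5 was 7, or 1 when those groups were fitted by themselves, and 4 to 6 with 1 library left out. With 1 library left out it was 2 to 4 against 5 at day 0 and 1 to 2 against 2 at day 1. For the change to day 1 with SDS and Topsym it was 2 to 3 against 4, and 7 with day 0 of SDS alone as baseline. For the interaction of Topsym with day it was 0 to 1 against 1 at day 1, and 3 to 5 against 5 at day 3. Over all genes, Topsym against SDS alone gave 1881 calls at day 1, or 999, 921 and 924 without SDS alone replicate 1, Topsym replicate 1 and Topsym replicate 2, and 8976 at day 5, or 4028 with those groups fitted by themselves.

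With day 0 of SDS alone as baseline, added after seeing the data, the changes with SDS and Topsym turned to 0.039 for Lgr6 and -0.44 for Nfatc1 at day 1 and to -0.15 for Sox9 at day 3. The other sign changes were of values that missed the threshold. Krt15 from day 3 to day 5 with SDS alone was 0.0053 with TMM, 0.031 with edgeR and -0.062 to 0.029 with 1 library left out. Lgr5 with Topsym against SDS alone at day 3 was 0.034 with TMM, 0.024 with edgeR and -0.097 to 0.080 with 1 library left out, and at day 5 it was -2.34 to 1.59. Its interaction at day 5 was -0.52 in edgeR, -0.53 in DESeq2 and -1.90 to 2.03 with 1 library left out, and at day 1 it was -0.10 to 0.24. With 1 library left out, Sox9 at day 1 with SDS and Topsym was -0.13 to 0.10, Gli1 with Topsym against SDS alone at day 1 was -0.041 to 0.23 and Nfatc1 at day 5 was -0.14 to 0.11. The interaction was -0.0091 to 0.071 for Lrig1 at day 1 and -0.073 to 0.22 for Lgr6 at day 3.

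Same-numbered libraries showed no shared shift over all genes, as their deviations had r of -0.031 to 0.03 over 28 pairs of groups. Such values cannot tell whether these libraries share an animal or a batch. The replicate block ended the call of Tbx1 at day 0 for Topsym against SDS alone (-0.39, adjusted p = 0.0513), added that of Lgr5 at day 3 with SDS and Topsym (-2.10, adjusted p = 0.0482) and changed no other call of the 10 genes.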
